A study of Mus musculus with 81 samples.

Results

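The nuclear genes of oxidative phosphorylation were followed across normal thymus and thymic lymphomas of mice by RNA sequencing. Members were all genes in the deposited count table whose symbols begin with Nduf, Uqcr, Cox4 to Cox8 or Atp5, or name 1 of the 4 succinate dehydrogenase subunits, with a mean of at least 5 CPM (counts-per-million, a scale that removes differences in sequencing depth) over the mice. Pseudogene symbols containing -ps were left out, 7 in number. Of 51826 genes, 93 symbols matched the pattern and 88 passed the limit. All 88 are annotated as protein-coding. Complex I contributed 37 genes, its Ndufaf assembly factors 8, complex II 4, complex III 8, complex IV 14 and the ATP synthase 17. The 5 symbols below the limit were Cox8c, Cox7b2, Cox4i2, Ndufa4l2 and Cox6b2.

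Oxidative phosphorylation takes place in the inner mitochondrial membrane. Complexes I and II pass electrons from NADH and succinate to ubiquinone, complex III passes them to cytochrome c and complex IV to oxygen, and the protons pumped on the way drive the ATP synthase. Most subunits are encoded in the nucleus and a few in the mitochondrial genome, so each complex other than complex II is built from both sources. Dividing thymocytes and lymphoma cells use this chain beside glycolysis, and heart, muscle and brown fat use it most heavily and have subunit isoforms of their own.

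Every mouse was of a C57BL/6 x 129S4Sv/Jae background and carried Plk4 at Col1a1 together with rtTA and centrin-GFP at Rosa. The Plk4 kinase controls how often centrioles are copied, and rtTA switches such transgenes on under doxycycline. In treated mice doxycycline was given over 2 weeks, beginning at an age of 30 days, and the labels name no tissue to which the transgene was restricted. The 4 groups compared were 8 normal thymuses of untreated p53+/+ mice, lymphomas of 10 untreated p53-/- mice, lymphomas of 9 treated p53-/- mice and lymphomas of 12 treated p53+/- mice. One further normal thymus, of the untreated p53+/- mouse 819, entered no test except in the alternatives that name it. The study's design text asks how aneuploidy affects tumour development. Every comparison with normal thymus therefore also differs in p53 genotype, and the comparisons of treated mice also differ in doxycycline, and these parts cannot be told apart. Treated normal thymus and untreated p53+/- lymphoma were not analysed here.

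The 81 libraries held between 1.03 and 26.87 M counts (M for mega), and the biopsies of a tumour were summed, giving 5.01 to 98.59 M counts per mouse. Some mice stood apart. Normal mouse 387 had Cd3e, a subunit of the T-cell receptor complex, at 64 CPM, against 222 to 401 CPM in the other normal p53+/+ thymuses. Untreated p53-/- mouse 881 had Cd3e at 1.77 CPM. Untreated p53-/- mouse 562 had the muscle gene Ckm at 262 CPM. Treated p53-/- mouse 857, with 9.48 M counts the shallowest of its group, had the highest mean level of the members of all mice. Trp53 was lower in every lymphoma group (medians 43.6, 42.1 and 39.5 CPM against 106 CPM), and 8 of 10, 9 of 9 and 12 of 12 tumours lay below every normal p53+/+ thymus. The highest untreated p53-/- tumour had 96.1 CPM, inside the normal range of 73.8 to 116 CPM. Trp53 RNA was thus still counted in p53-/- tumours, and which part of the gene is deleted is not given in the sources used here.

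The normal thymus libraries also contained fat. Ucp1, the uncoupling protein that defines brown fat, lay between 150 and 884 CPM in the 8 normal p53+/+ thymuses and between 0 and 6.67 CPM in all 31 lymphomas. The summed level of 8 brown fat markers was 291 to 1585 CPM in normal p53+/+ thymus, and at most 38.1 CPM in any lymphoma. All 10 general fat cell markers were lower in each lymphoma group. Thymic epithelial markers summed to 205 to 2991 CPM in normal thymus and to at most 438 CPM in lymphoma. Striated muscle markers, 11 of 14 of which were tested, went different ways. Their summed level was 16.9 to 70.6 CPM (median 48.5) in normal thymus, and in untreated p53-/- lymphoma it was 3736 CPM in mouse 562 and 18.4 to 85.1 CPM in the other 9 tumours (median of all 10, 25.9 CPM). In untreated p53-/- lymphoma 6 were higher and 0 lower (median log2 fold change 2.05), but without mice 881 and 562, of the 9 then tested, 0 were higher and 3 lower (median -0.73). In treated p53-/- and treated p53+/- lymphoma 0 were higher and 3 lower (medians -2.29 and -1.07). Of 8 B-lineage markers, 1, 6 and 6 were lower in the 3 lymphoma groups and 0 higher, with medians of 0.69, -4.46 and -2.83, and without mice 881 and 562 the first became 3 lower, with a median of -2.04. The part of these cells in the members' differences was not tested. In the other direction, 13 of 14 proliferation markers were higher in each lymphoma group. In bulk tissue, fewer cells of a type and less RNA per cell cannot be told apart, and the groups did not overlap in Ucp1, so the fat content and the group cannot be told apart either.

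Compared with normal thymus, most members did not pass the test in any lymphoma group, and those that did went both ways. Among the members measured at 5 CPM or more in both kinds of tissue, the largest rise in each group was that of Atp5g1, a gene of the ATP synthase c subunit. Sdha, of complex II, was lower in all 3 groups. In untreated p53-/- lymphoma, 6 members were higher and 10 lower (edgeR quasi-likelihood test, Benjamini-Hochberg adjusted p under 0.05), which is 18.2% of the members, while 40.7% of all 17843 genes tested were called (23.2% higher, 17.5% lower). In treated p53-/- lymphoma 24 were higher and 10 lower, 38.6% of the members against 52.1% of all genes (25.4% higher, 26.7% lower). In treated p53+/- lymphoma 21 were higher and 5 lower, 29.5% against 50.9% (25.6% higher, 25.3% lower). The share called was thus below that of all genes in each comparison. The median log2 fold change of the members was -0.07, 0.25 and 0.17 in that order, beside 0.08, -0.04 and -0.00 for all genes. The 3 comparisons share the same normal thymuses. In 5 members the limit of 5 CPM was met in 1 kind of tissue alone, so their difference was built into their membership and is given below as a description, with no test. Cox7a1 and Cox8b had means of 45.7 and 98.1 CPM in normal p53+/+ thymus and of 1.71 and 0.584 CPM over the lymphomas. Ndufaf6, Cox6a2 and Atp5g2 had means of 4.83, 2.22 and 2.19 CPM in normal thymus and of 16.5, 18.5 and 7.06 CPM over the lymphomas. Among the other 83 members, 3 were higher and 8 lower in untreated p53-/-, 21 and 8 in treated p53-/- and 18 and 3 in treated p53+/- lymphoma. The shares called of these 83 were 13.3%, 34.9% and 25.3%. Of these 83, 34 were called at least once and 49 never, and 5 were called in all 3 comparisons: Atp5g1, Atp5g3 and Ndufaf4 as higher, and Sdha and Atp5sl as lower.

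**Figure D1:**
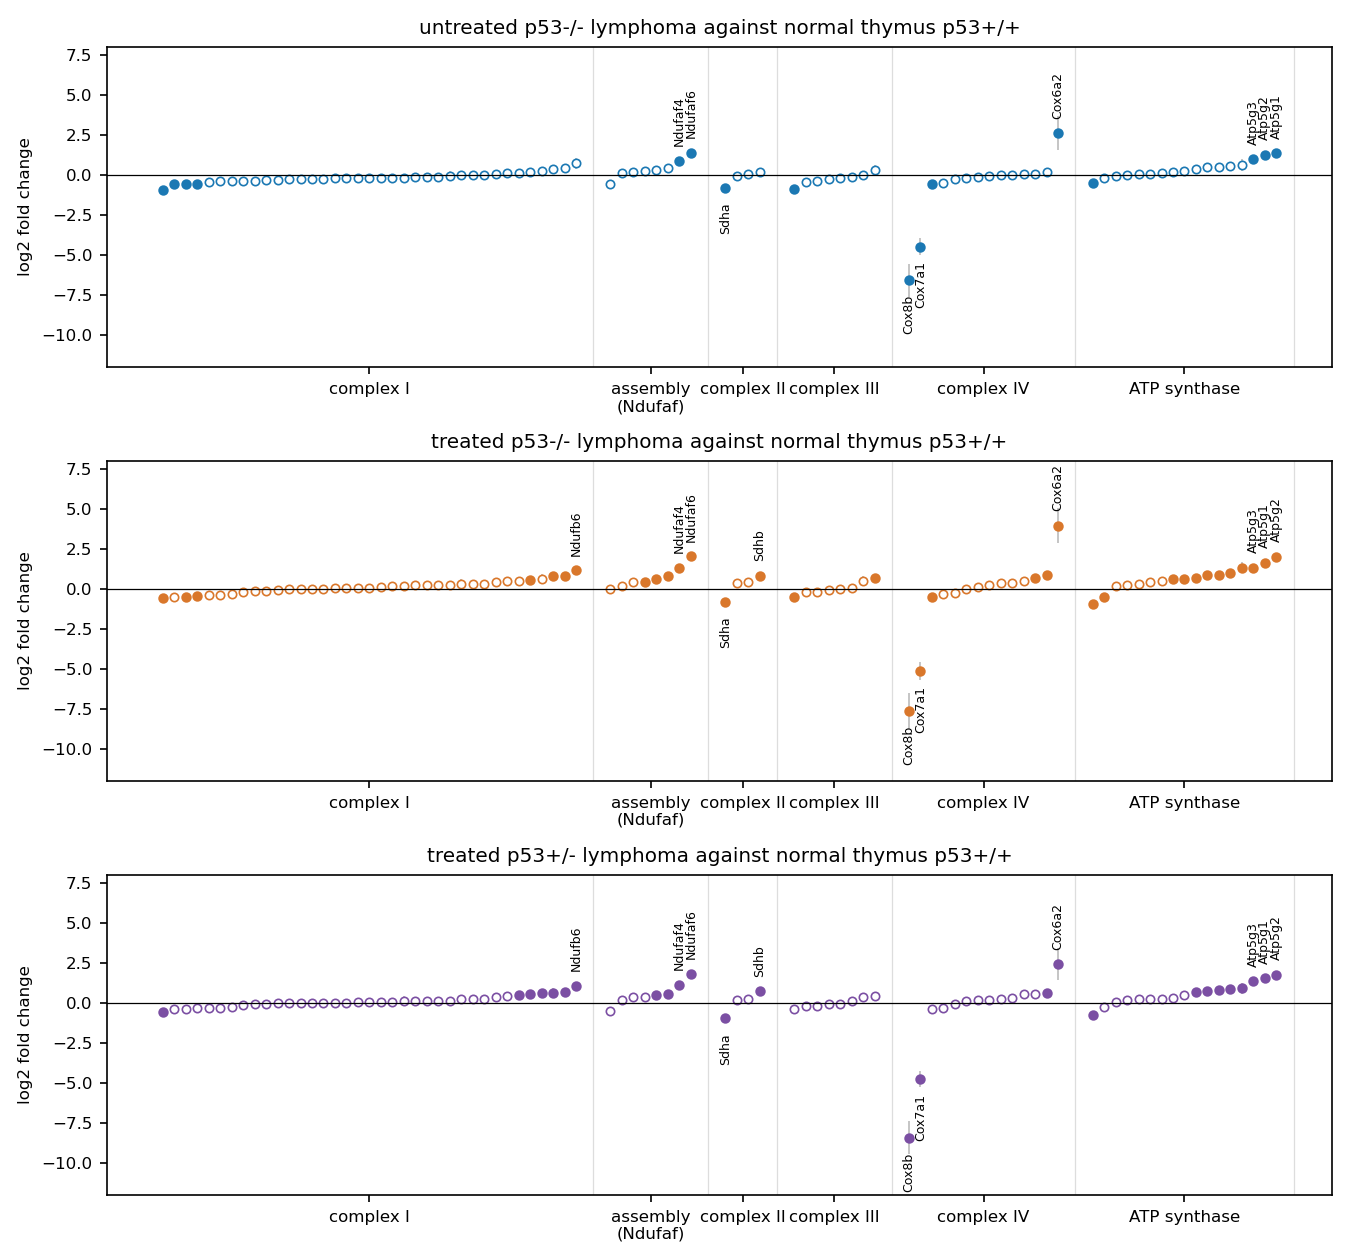
Log2 fold change of each of the 88 members against normal p53+/+ thymus (vertical axis), ordered within each complex by size (horizontal axis), in 3 panels for the 3 lymphoma groups. Filled points passed the adjusted p of 0.05, open points did not, and grey bars are standard errors. The filled points of Cox7a1, Cox8b, Cox6a2, Ndufaf6 and Atp5g2, which met the limit in 1 tissue alone, are a description only. Cox8b and Cox7a1 lie far below the rest in all 3 panels.

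These counts depended on how the normal tissue was treated in the fit. With the mean level of the fat and brown fat markers as a covariate, 0 members were called in any of the 3 comparisons. Of all 17843 genes, 670, 895 and 702 were called. These are 3.75%, 5.02% and 3.93%, down from 40.7%, 52.1% and 50.9% in the main fit. An unadjusted p under 0.05 was found for 7, 10 and 9 of the 88 members and for 3513, 3759 and 3535 of all genes. With the proliferation markers as a covariate, 2 members were higher and 6 lower, then 5 and 3, then 5 and 3, which is 9.09% of the members in each, beside 11.9%, 12.6% and 12.1% of all genes. Another alternative, chosen after the data were seen, put mouse 819 in place of the 8 normal thymuses, with 1 mouse assumed to vary like the others. The median log2 fold change of the members was then 0.86, 1.18 and 1.04, beside 0.23, 0.13 and 0.16 for all genes. Mouse 819 had the lowest member mean of the normal thymuses, so the direction of these medians was known before the fit. Without scaling factors the split moved to 5 higher and 19 lower in untreated p53-/- and to 16 and 15 in treated p53+/- lymphoma. All genes moved the same way, from 4139 higher and 3131 lower to 3105 and 3551 and from 4568 and 4511 to 3781 and 4882. With single-biopsy mice alone, 12 members were higher and 14 lower in treated p53-/- lymphoma (median 0.07) and 12 and 5 in treated p53+/- lymphoma (median 0.08). Leaving out normal mouse 387 reduced the members lower in untreated and in treated p53-/- lymphoma to 6 and 4. Leaving out normal mouse 787 or 978 raised those lower in treated p53+/- lymphoma to 8 or 9, and leaving out mouse 857 raised those higher in untreated p53-/- lymphoma to 13. These alternatives also ended calls of single genes, which are named with the gene only where leaving out 1 mouse or adding near-identical copies was enough.

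The level of the members within normal thymus varied with the mouse. Over the 85 members without Cox7a1, Cox8b and Cox6a2, the mean log2 CPM was 5.89 to 6.97 in normal p53+/+ thymus, 6.22 to 6.68 in untreated p53-/-, 6.14 to 7.64 in treated p53-/- and 6.27 to 7.04 in treated p53+/- lymphoma. These 85 include Ndufaf6 and Atp5g2, which met the limit in lymphoma alone and so add to the means of the lymphomas. The group means were 6.43 ± 0.37 (SD, n = 8), 6.47 ± 0.15 (n = 10), 6.69 ± 0.43 (n = 9) and 6.64 ± 0.28 (n = 12), and the groups overlapped. The 4 normal thymuses with Ucp1 at 592 CPM or more had means of 6.97, 6.81, 6.48 and 6.66 (for Ucp1 of 592, 620, 647 and 884 CPM). The other 4, with Ucp1 of 150, 177, 268 and 346 CPM, had means of 6.04, 5.89, 6.29 and 6.29. Mouse 819, with Ucp1 at 0.713 CPM, had a mean of 5.73, below all 8 normal p53+/+ thymuses, and 65 of the 88 members were lower in it than in every one of them. In p53+/+ mouse 978, with Ucp1 at 177 CPM, 66 were lower than in the other 7. The thymic epithelial markers of mouse 819 summed to 2358 CPM, inside the range of the other normal thymuses, and its brown fat markers to 10.4 CPM. The part of fat in these levels was not tested within the normal thymuses.

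**Figure D2:**
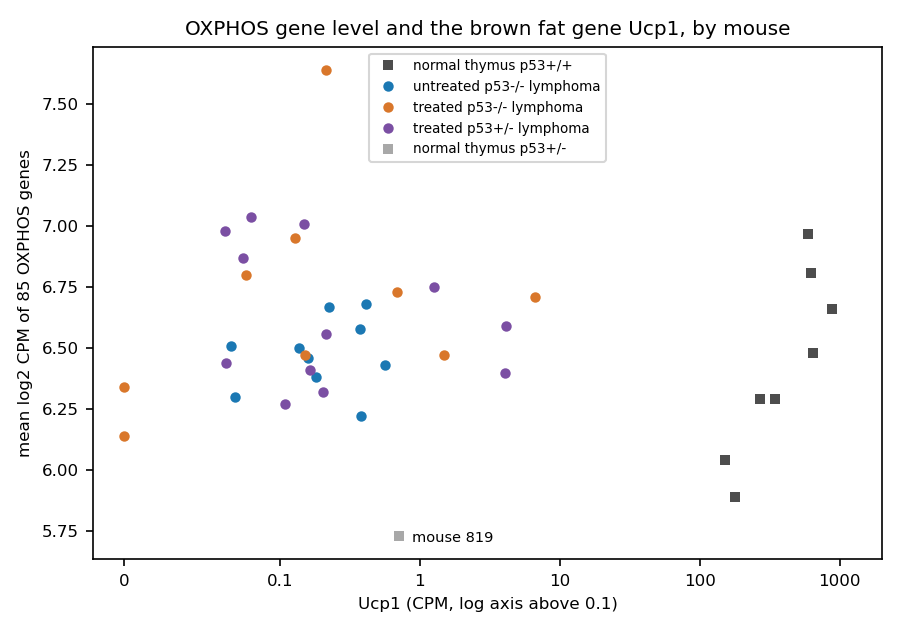
Mean log2 CPM of 85 members (vertical axis) against Ucp1 in CPM (horizontal axis, log scale above 0.1), with 1 point per mouse and colours for the groups. The 85 include Ndufaf6 and Atp5g2, which met the limit in lymphoma alone. The 8 normal p53+/+ thymuses sit at Ucp1 of 150 CPM and more, all lymphomas sit at 6.67 CPM or less, and mouse 819 has the lowest mean, 5.73.

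Promoters are shown for Atp5g1 and Atp5g3, which were called higher in each group, and for Cox7a1 and Cox8b, which had the lowest log2 fold changes. RefSeq promoter windows of 300 bases (250 before and 50 after the start, build GRCm38.p6) matched 75 of the 88 members, with 81 promoters. The core GCATGCG of NRF1, a nuclear respiratory factor, occurred on either strand in 16% of the member promoters and in 3.58% of all 32851 promoters. The core CCGGAAG of ETS factors, which include GABP, occurred in 22.2% against 8.86%, and the core AGATGGC of YY1 in 17.3% against 6.4%. The nuclear receptor half-site AAGGTCA, bound by the ESRR receptors, was found in 9.88% against 4.72%, and the E-box CACGTG, which MYC binds, in 11.1% against 7.15%. Counted per gene, the E-box shares were 9.33% of member genes and 8.09% of all genes, and those of the NRF1 core 17.3% and 4.01%. The half-site and the E-box were added after values were seen, and member promoters had a median GC content of 57.6% against 52.4%. The sequences shown, chosen after the values were seen, are the stretches before the outermost annotated start of 2 genes that rose and 2 with low values in lymphoma, with any of the 5 motifs in capitals. Atp5g1 lies at chr11:96075670-96075881, Atp5g3 at chr2:73911327-73911576 and Cox8b at chr7:140900447-140900696, all on the minus strand, and Cox7a1 at chr7:30183921-30184143 on the plus strand. The Atp5g1 stretch runs 1 base into the gene, so that its E-box is whole.
Atp5g1: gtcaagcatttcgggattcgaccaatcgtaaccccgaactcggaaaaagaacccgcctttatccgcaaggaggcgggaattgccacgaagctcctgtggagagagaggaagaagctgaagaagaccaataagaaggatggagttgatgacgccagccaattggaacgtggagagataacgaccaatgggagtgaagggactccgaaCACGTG
Atp5g3: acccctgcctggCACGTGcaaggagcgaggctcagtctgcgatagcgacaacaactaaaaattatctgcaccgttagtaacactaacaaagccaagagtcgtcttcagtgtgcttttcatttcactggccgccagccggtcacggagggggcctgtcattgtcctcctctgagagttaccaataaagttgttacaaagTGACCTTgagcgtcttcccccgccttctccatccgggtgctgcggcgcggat
Cox7a1: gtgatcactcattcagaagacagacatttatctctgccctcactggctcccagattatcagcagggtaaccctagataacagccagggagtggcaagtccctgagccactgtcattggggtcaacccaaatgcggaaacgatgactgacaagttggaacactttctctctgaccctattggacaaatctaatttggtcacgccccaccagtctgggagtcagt
Cox8b: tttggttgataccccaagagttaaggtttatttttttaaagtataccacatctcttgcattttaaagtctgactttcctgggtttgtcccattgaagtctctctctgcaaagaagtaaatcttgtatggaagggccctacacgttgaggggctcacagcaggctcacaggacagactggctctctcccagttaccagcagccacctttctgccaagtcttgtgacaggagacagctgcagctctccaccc
Atp5g1 and Atp5g3 each hold an E-box and Atp5g3 also the half-site on the minus strand (TGACCTT). The windows of Atp5g2, the other c-subunit gene, and of Ndufaf4, which was called higher, held the NRF1 core and no E-box, while none of the 5 motifs was found in the windows of Cox7a1 and Cox8b. A match is a string of letters only and does not show that a factor binds there.

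Complex I is the entry point for electrons from NADH. Of its 37 subunit genes, 0 were higher and 4 lower in untreated p53-/- lymphoma, 4 higher and 3 lower in treated p53-/- and 6 higher and 1 lower in treated p53+/- lymphoma. These are 10.8%, 18.9% and 18.9% of the subunit genes, below the 40.7%, 52.1% and 50.9% of all genes called. The medians were -0.19, 0.09 and 0.04. Of the 7 nuclear core subunits, which bind the flavin and the iron-sulfur clusters or form the quinone site, only Ndufs7 was called, in treated p53-/- lymphoma, with a log2 fold change of -0.47 ± 0.15 (SE, adjusted p = 0.00771), and that call was lost without normal mouse 387 and turned to 0.51 with mouse 819 as the normal tissue.

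The accessory subunit Ndufb6, of the membrane arm, was the largest rise of complex I in both treated groups. Its level was 24.3 to 111 CPM (median 40.8) in normal thymus, 41.2 to 96 (66.4) in untreated p53-/-, 66.2 to 230 (106) in treated p53-/- and 42.8 to 148 (94.2) in treated p53+/- lymphoma. It rose in both treated groups, by a log2 fold change of 1.18 ± 0.27 (SE, adjusted p = 0.000358) and 1.06 ± 0.26 (adjusted p = 0.00103), although 3 of 9 and 4 of 12 tumours exceeded every normal thymus. In untreated p53-/- lymphoma its value was 0.44 ± 0.27 (adjusted p = 0.192). Ndufb9, another membrane-arm subunit, rose in the treated groups by 0.79 ± 0.24 (adjusted p = 0.00647) and 0.69 ± 0.23 (adjusted p = 0.0133). Ndufs5 rose in the same groups by 0.79 and 0.65, the second call lost without any 1 of normal mice 787, 961, 978, 980 and 615. A near-identical copy held 22.8% of the joint counts of Ndufs5, and with its counts added the values were 0.44 and 0.35 and neither was called (adjusted p = 0.104 and 0.183).

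Among the falls of complex I, Ndufa5 had 36.3 to 83.9 CPM (median 53.1) in normal thymus and medians of 35.1, 35.4 and 33.5 CPM in the 3 lymphoma groups. Its log2 fold changes were -0.94 ± 0.24 (SE, adjusted p = 0.0019) in untreated p53-/- and -0.56 ± 0.22 (adjusted p = 0.0329) in treated p53+/- lymphoma, the second lost when any of normal mice 387, 818, 961, 615 or 624 was left out. In treated p53-/- lymphoma it was -0.50 ± 0.23 (adjusted p = 0.0685). With mouse 819 as the normal tissue the called values turned to 0.30 and 0.78. Ndufb10 fell by 0.58 and 0.55 on the log2 scale in untreated and treated p53-/- lymphoma (adjusted p = 0.016 and 0.0143), and neither call held without mouse 387, nor the first without mouse 818. With mouse 819 as the normal tissue they turned to 0.35 and 0.43. Ndufa4, now counted with complex IV in the literature, had 147 CPM at the median in normal thymus and log2 fold changes of -0.02, 0.06 and -0.02, none called.

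The Ndufaf genes encode assembly factors, which help to build complex I and are not part of the finished enzyme. Of the 7 other than Ndufaf6, 1 was higher in untreated p53-/-, 4 in treated p53-/- and 3 in treated p53+/- lymphoma, and 0 were lower in any group. As shares these are 14.3%, 57.1% and 42.9%, beside 23.2%, 25.4% and 25.6% of all genes called higher and 40.7%, 52.1% and 50.9% called in either direction, and the medians were 0.22, 0.46 and 0.40. Ndufaf6 (chr4:11051045-11076205, GRCm38) had 2.82 to 5.93 CPM (median 5.19) in normal thymus, 8.51 to 19.7 (10.3) in untreated p53-/-, 12.9 to 35.7 (19) in treated p53-/- and 7.47 to 30.4 (17.7) in treated p53+/- lymphoma. Every one of the 31 lymphomas exceeded every normal thymus, and mouse 819 had 3.75 CPM. The log2 fold changes were 1.39 ± 0.26, 2.05 ± 0.26 and 1.84 ± 0.25 (SE), as a description, since the level in lymphoma alone made Ndufaf6 a member.

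Ndufaf4, also on chromosome 4, had 13.4 to 24.1 CPM (median 16.7) in normal thymus and medians of 37.8, 45.4 and 42.9 CPM in the lymphoma groups. All tumours exceeded all normal p53+/+ thymuses but 1 treated p53+/- tumour, of mouse 266, which had 8.5 CPM. The log2 fold changes were 0.90 ± 0.21, 1.32 ± 0.21 and 1.13 ± 0.20 (SE, adjusted p = 0.00081, 2.78e-06 and 1.59e-05). Ndufaf5 and Ndufaf7 were called in both treated groups, at 0.82 and 0.57 and at 0.46 and 0.53. The 0.57 was no longer called without any 1 of normal mice 787, 978 and 615, nor the 0.46 without mouse 787. Ndufaf8 was called in treated p53-/- lymphoma alone, at 0.61 ± 0.25 (adjusted p = 0.0363), a call lost without any 1 of normal mice 787, 818 and 978, and its value in treated p53+/- lymphoma was 0.40 ± 0.24.

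Complex II, succinate dehydrogenase, takes part in both the citric acid cycle and the chain, and its subunits went in different directions. Sdha, the flavoprotein subunit (chr13:74322254-74350280), had 242 to 702 CPM (median 336) in normal thymus, 155 to 327 (228) in untreated p53-/-, 223 to 292 (241) in treated p53-/- and 174 to 324 (227) in treated p53+/- lymphoma. The groups overlapped, with 6 of 10, 5 of 9 and 9 of 12 tumours below every normal p53+/+ thymus, and mouse 819 had 199 CPM, which is also below them. Sdha fell by 0.83, 0.79 and 0.96 on the log2 scale (SE 0.18, 0.18 and 0.17, adjusted p = 0.00034, 0.000326 and 1.27e-05). With fat markers as a covariate these values were 0.26, 0.33 and 0.15, none of them called. With mouse 819, a single mouse, in place of the normal thymuses they were 0.33, 0.36 and 0.18. Both settings thus turned the sign of the estimates, which does not show a rise of Sdha.

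Sdhb, the iron-sulfur subunit (chr4:140961203-140979193), had 104 to 275 CPM (median 157) in normal thymus, 141 to 332 (187) in untreated p53-/-, 159 to 512 (305) in treated p53-/- and 181 to 427 (296) in treated p53+/- lymphoma. It rose in the treated groups by 0.84 ± 0.23 (SE, adjusted p = 0.00319) and 0.74 ± 0.23 (adjusted p = 0.00725), with 7 of 9 and 6 of 12 tumours above every normal thymus. In untreated p53-/- lymphoma the value was 0.21 ± 0.24 (adjusted p = 0.494). The membrane anchors Sdhc and Sdhd were not called in any group, with values between -0.09 and 0.41.

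Of the 8 genes of complex III, 0 were higher and 1 lower in untreated p53-/-, 1 and 1 in treated p53-/- and 0 and 0 in treated p53+/- lymphoma, with medians of -0.23, -0.02 and -0.05. The shares called were 12.5%, 25% and 0%, beside 40.7%, 52.1% and 50.9% of all genes. Uqcrb, the ubiquinone-binding subunit, had 62.8 to 174 CPM (median 83.9) in normal thymus and medians of 56.6, 63.6 and 74.4 CPM in the lymphoma groups. Its log2 fold changes were -0.90 ± 0.20 (SE, adjusted p = 0.000496), -0.53 ± 0.20 (adjusted p = 0.0247) and -0.38 ± 0.19 (adjusted p = 0.0949). The second call was lost without any 1 of normal mice 387, 818 and 624. With mouse 819 in place of the normal thymuses the first 2 values turned to 0.45 and 0.82. Near-identical copies held 12.4% of the joint counts of Uqcrb, and with their counts added the values were -1.15, -0.86 and -0.65, all called (adjusted p = 3.77e-05, 0.000685 and 0.00609). Uqcr10 was called in treated p53-/- lymphoma at 0.68 ± 0.26 (adjusted p = 0.0261), and this was lost without any 1 of normal mice 787, 978 and 615. The core proteins Uqcrc1 and Uqcrc2 and the Rieske iron-sulfur protein Uqcrfs1 were not called in any group, with values from -0.39 to 0.08.

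**Figure D3:**
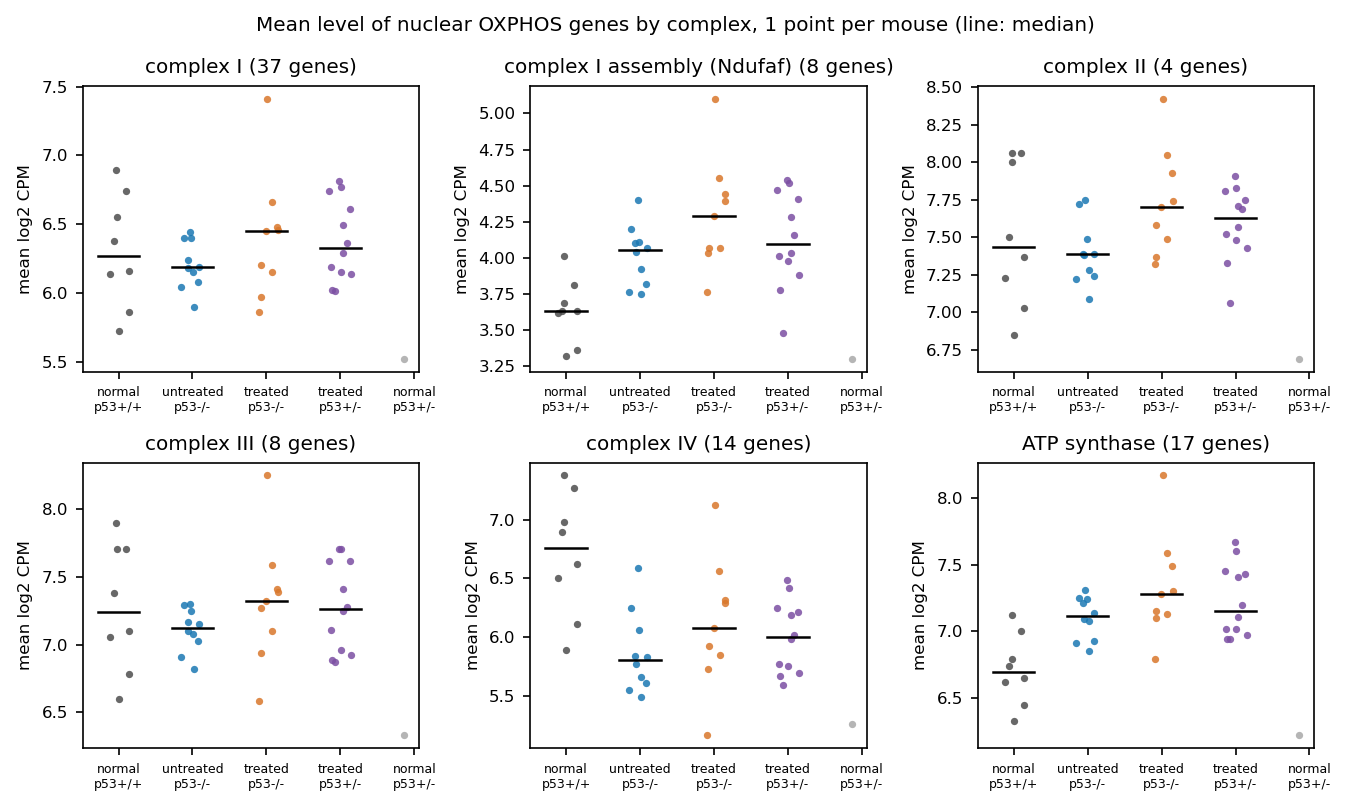
Mean log2 CPM over the members of each complex (vertical axes, which do not start at 0 and differ between panels), with 1 point per mouse in each group and a line at the group median, over all members, those that met the limit in 1 tissue alone included. The group medians of ATP synthase and the Ndufaf factors are higher in the lymphomas and those of complex IV lower, with overlapping mice, and mouse 819 is the lowest of the normal thymuses in every panel.

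Complex IV, cytochrome c oxidase, has subunits that come in a general form and a form found in heart, muscle and brown fat, and the tissue forms accounted for its largest differences. The mean log2 CPM of its 14 genes was 6.71 ± 0.53 (SD, n = 8) in normal thymus and 5.86 ± 0.34 (n = 10), 6.12 ± 0.56 (n = 9) and 6.00 ± 0.31 (n = 12) in the lymphoma groups. Without Cox7a1, Cox8b and Cox6a2 the means were 7.42 ± 0.43, 7.38 ± 0.12, 7.59 ± 0.48 and 7.58 ± 0.30, which lie within the spread of normal thymus.

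Cox7a1, the heart and muscle form of subunit 7a (chr7:30184144-30186078), had 12.9 to 78.8 CPM (median 45.9) in normal thymus, 0.679 to 5.22 (1.42) in untreated p53-/-, 0.49 to 3.5 (0.709) in treated p53-/- and 0.414 to 3.59 (2.06) in treated p53+/- lymphoma. All 31 lymphomas lay below all 8 normal p53+/+ thymuses, and so did mouse 819 with 0.998 CPM. The log2 fold changes were -4.48 ± 0.53, -5.13 ± 0.56 and -4.74 ± 0.50 (SE), given as a description since the level in normal thymus alone made Cox7a1 a member. Set against mouse 819 in place of the normal thymuses, they were 0.96, 0.25 and 0.55. Per length of transcript, Cox7a1 made up 21.5% to 54.3% of Cox7a1 plus Cox7a2 in normal thymus, 2.45% in mouse 819 and medians of 1.67%, 0.897% and 1.57% in the lymphoma groups. Cox7a2, the general form, rose in treated p53-/- lymphoma by 0.87 ± 0.26 (adjusted p = 0.00563) and had values of 0.18 and 0.55 in the other groups.

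Cox8b, the muscle and brown fat form of subunit 8 (chr7:140898945-140900446), was also high in normal p53+/+ thymus alone. It had 21.6 to 197 CPM (median 91.9) in normal thymus, 0 to 7.52 (0.183) in untreated p53-/-, 0 to 1.71 (0.101) in treated p53-/- and 0 to 2.33 (0.0948) in treated p53+/- lymphoma. No lymphoma overlapped a normal p53+/+ thymus, 7 of the 31 had no count, and mouse 819 had 0.903 CPM. The fitted log2 fold changes were -6.58 ± 1.03, -7.61 ± 1.11 and -8.42 ± 1.03 (SE), a description for the same reason, and their size depends on counts near 0. With the fat markers as a covariate they were 2.25, 1.78 and 0.90. Cox8b made up 19.1% to 51.9% of Cox8b plus Cox8a per length in normal thymus and 1.04% in mouse 819. The general form Cox8a was not called in any group, with values of -0.50, -0.29 and -0.35. The highest Cox8b among the lymphomas, 7.52 CPM, came from mouse 562, the tumour with Ckm at 262 CPM.

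**Figure D4:**
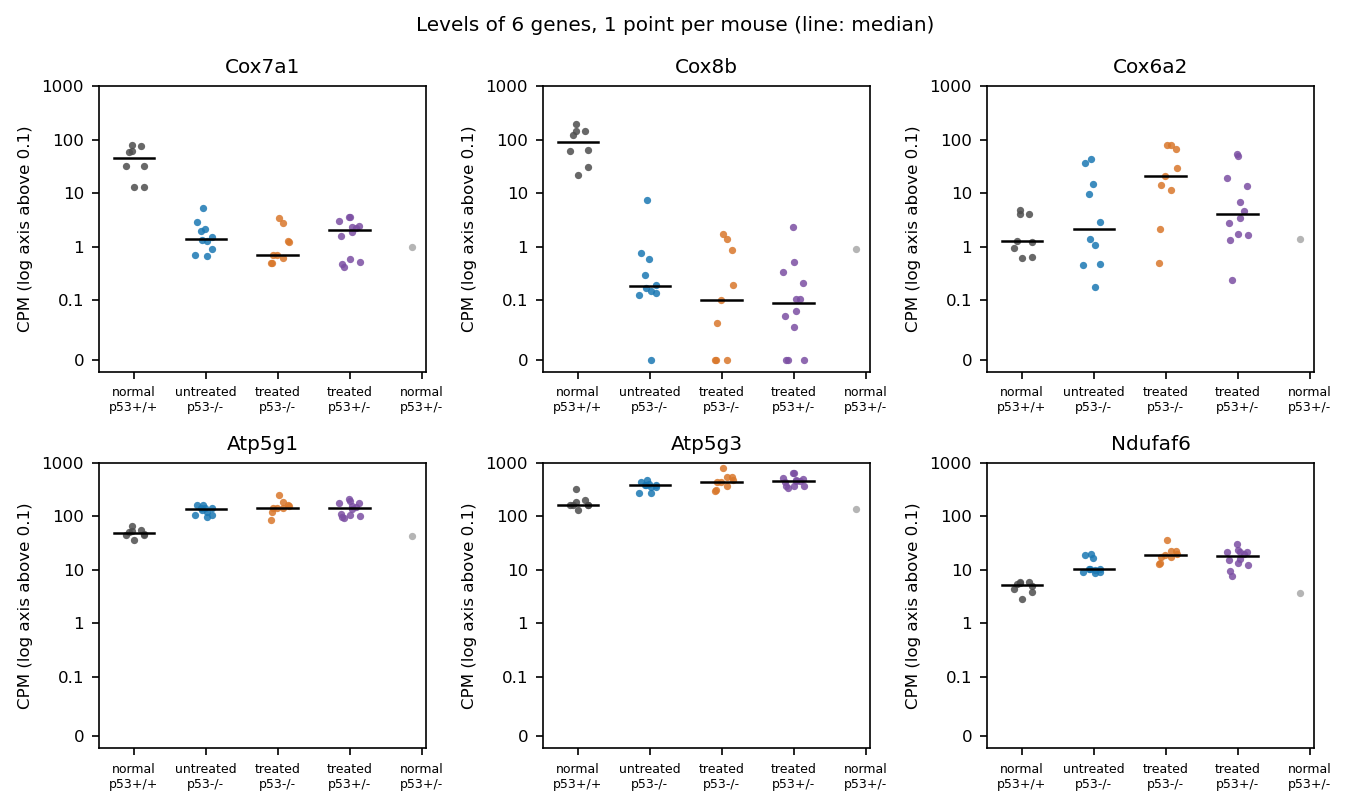
CPM (vertical axes, log scale above 0.1) of 6 members, with 1 point per mouse in each group and a line at the group median. Cox7a1 and Cox8b separate the normal p53+/+ thymuses from all other mice, Cox6a2 spreads widely among lymphomas, and Atp5g1 and Ndufaf6 are higher in all 31 lymphomas than in any normal thymus.

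Cox6a2, the heart and muscle form of subunit 6a (chr7:128205435-128206387), behaved unlike the other tissue forms. Its level was 0.61 to 4.82 CPM (median 1.26) in normal thymus, 0.176 to 42.7 (2.16) in untreated p53-/-, 0.506 to 80.3 (21) in treated p53-/- and 0.245 to 53.3 (4.05) in treated p53+/- lymphoma. The groups overlapped, and 14 of 31 lymphomas exceeded 10 CPM (3 of 10, 7 of 9 and 4 of 12), which no normal thymus did. Ckm, the muscle creatine kinase, was at most 4.71 CPM in 13 of these 14, the exception being mouse 562. The striated muscle markers summed to at most 85.1 CPM in every lymphoma other than mouse 562. The tumours with the highest Cox6a2, mice 857 and 869 at 80.3 and 79.6 CPM, had Ckm at 0.318 and 0.631 CPM. The log2 fold changes of Cox6a2 were 2.61 ± 1.05, 3.96 ± 1.08 and 2.42 ± 1.0 (SE), the largest of all members and a description only, since the level in lymphoma alone made it a member. Without mice 881 and 562 the value in untreated p53-/- lymphoma was 2.19. Over the 24 alternatives the values of the 3 groups ran from 1.01 to 3.87, from 2.19 to 5.28 and from 0.59 to 3.72. Among the lymphomas Cox6a2 made up at most 16.6% of Cox6a2 plus Cox6a1 per length, and Cox6a1 was not called in any group.

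Of the other complex IV subunits, Cox6c rose in the treated groups by 0.68 ± 0.26 and 0.64 ± 0.25 (SE, adjusted p = 0.0245 and 0.0319). The first call was lost without normal mouse 787 or 978 or without mouse 857, and the second without any 1 of normal mice 787, 961, 978, 980 and 615. Cox6b1 fell by 0.58 and 0.49 on the log2 scale in untreated and treated p53-/- lymphoma (adjusted p = 0.0135 and 0.027), and both calls were lost without normal mouse 387 or 818 and the second also without mouse 624. With mouse 819 as the normal tissue they turned to 0.38 and 0.52. Cox4i1, the main form of subunit 4, had medians of 388, 348, 375 and 338 CPM in normal thymus and the 3 lymphoma groups, with log2 fold changes of -0.21, 0.00 and -0.08, none called. The hypoxia form Cox4i2 lay below the limit, at a median of 0.647 CPM in normal thymus and at most 5.3 CPM in any mouse of the lymphoma groups. Cox6b2, known as the testis form, had a mean just below the limit and medians of 5.63, 2.96, 3.5 and 3.81 CPM in the 4 groups, with none of its differences called. Ndufa4l2, a paralogue of Ndufa4 induced in hypoxia, had medians of 1.84, 2.61, 2.29 and 1.84 CPM and was not called.

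The ATP synthase makes ATP from the proton gradient, and its rises were led by the genes of the c subunit. Of the 17 genes with an Atp5 symbol, Atp5sl and Atp5s are not subunits and Atp5g2 met the limit in lymphoma alone. Of the other 14, 2 were higher and 0 lower in untreated p53-/-, 8 and 1 in treated p53-/- and 7 and 0 in treated p53+/- lymphoma, with medians of 0.27, 0.64 and 0.59. The shares called were 14.3%, 64.3% and 50%, beside 40.7%, 52.1% and 50.9% of all genes, and the shares higher were 14.3%, 57.1% and 50%, beside 23.2%, 25.4% and 25.6%. The mean log2 CPM of these 14 was 7.51 ± 0.32 (SD, n = 8) in normal thymus and 7.91 ± 0.17 (n = 10), 8.16 ± 0.42 (n = 9) and 8.08 ± 0.29 (n = 12) in the lymphoma groups. Of the lymphomas, 3 of 10, 5 of 9 and 6 of 12 had a mean above every normal thymus, so the groups overlapped.

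Atp5g1, Atp5g2 and Atp5g3 encode the c subunit, which forms the rotating ring in the membrane. Their precursors differ in the mitochondrial import sequence, while the mature protein is the same. Atp5g1 (chr11:96068852-96075670) had 35.3 to 65.1 CPM (median 49.3) in normal thymus, 96.4 to 161 (134) in untreated p53-/-, 85.5 to 245 (142) in treated p53-/- and 90.6 to 204 (142) in treated p53+/- lymphoma, and 43.2 CPM in mouse 819. All 31 lymphomas exceeded all normal thymuses. The log2 fold changes were 1.35 ± 0.18, 1.63 ± 0.18 and 1.55 ± 0.18 (SE, adjusted p = 3.24e-07, 3.88e-09 and 6.56e-09). In the treated groups the call was lost only with the fat covariate out of the 24 alternatives, and in untreated p53-/- lymphoma also with mouse 819 in place of the normal thymuses, where the log2 fold change was 1.68 (adjusted p = 0.0517). A processed pseudogene 99.8% identical to Atp5g1 held 20.2% of their joint counts, and with its counts added the log2 fold changes were 1.36, 1.59 and 1.52.

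Atp5g3 (chr2:73908447-73911326) had 130 to 320 CPM (median 160) in normal thymus, 266 to 474 (377) in untreated p53-/-, 297 to 776 (430) in treated p53-/- and 330 to 635 (454) in treated p53+/- lymphoma. Only the highest normal thymus, mouse 624, overlapped the tumours, and 8 of 10, 7 of 9 and 12 of 12 exceeded it. The log2 fold changes were 0.98 ± 0.18, 1.33 ± 0.18 and 1.35 ± 0.18 (SE, adjusted p = 4.4e-05, 1.65e-07 and 9.04e-08). Atp5g2 had 1.38 to 3.14 CPM in normal thymus and medians of 5.99, 6.51 and 6.5 CPM in the lymphomas, with log2 fold changes of 1.25, 2.0 and 1.75, as a description, since the level in lymphoma alone made it a member. Its near-identical copies took 98.5% of the joint counts, so its level is uncertain.

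The alpha and beta subunits, which form the catalytic head of the ATP synthase, were not called in any group. Atp5b, the beta subunit, had medians of 1117, 1617, 1565 and 1476 CPM in normal thymus and the 3 lymphoma groups, with log2 fold changes of 0.35, 0.34 and 0.32 (SE 0.17, 0.16 and 0.16, adjusted p = 0.0894, 0.0837 and 0.0866). Atp5a1, the alpha subunit, had values of 0.05, 0.20 and 0.16. Atp5c1, the gamma subunit of the central stalk, rose in the treated groups by 0.61 ± 0.19 (adjusted p = 0.00821) and 0.73 ± 0.19 (adjusted p = 0.00148). Atp5e, the epsilon subunit, rose there by 1.32 ± 0.34 (adjusted p = 0.00157) and 0.92 ± 0.33 (adjusted p = 0.0179), whereas Atp5d, the delta subunit of the same stalk, fell by 0.53 on the log2 scale in treated p53-/- lymphoma (SE 0.15, adjusted p = 0.00416), a call lost without normal mouse 387. Atp5j, Atp5j2 and Atp5l, subunits of the stator and membrane part, were called higher in both treated groups, with values from 0.67 to 0.99. Near-identical copies held 67.1% of the joint counts of Atp5l.

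Atp5sl and Atp5s share the symbol pattern but are not subunits of the enzyme. Atp5sl, now named Dmac2, is an assembly factor of complex I. It had 34.2 to 47.2 CPM (median 40.7) in normal thymus and medians of 26.7, 21.4 and 22.3 CPM in the lymphomas, and 8 of 10, 9 of 9 and 11 of 12 tumours were below every normal thymus. Its log2 fold changes were -0.53 ± 0.19, -0.93 ± 0.19 and -0.72 ± 0.18 (SE, adjusted p = 0.025, 9.4e-05 and 0.00104), the first lost without normal mouse 387 or without mouse 857. In mouse 819 it was 36.6 CPM, inside the range of the other normal thymuses. Atp5s was one of the members just inside the limit, with a mean of 6.83 CPM, and was called higher in treated p53-/- lymphoma alone (0.62 ± 0.22, adjusted p = 0.0188). The member nearest the limit was Atp5g2, at 5.81 CPM, and the symbols just outside were Cox6b2 at 4.55 and Ndufa4l2 at 2.61 CPM.

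Between lymphoma groups, no member was called. Each comparison covered 16389 genes and 87 members, Cox8b having been filtered out for low counts, and 0% of all genes were called by edgeR. DESeq2 called 75, 12 and 3 of all genes and limma voom over biopsies 39, 1 and 1, and neither called a member. In treated against untreated p53-/- lymphoma, 24 of 87 members had an unadjusted p under 0.05, 23 of them higher, while 11.7% of all genes did (3.81% higher). The median of the members was 0.31 beside -0.06 for all genes, and 78 of 87 values were above 0. The 3 smallest p belonged to Ndufb9 (0.70 ± 0.23, p = 0.00432, adjusted p = 0.288), Cox7c (0.64 ± 0.21, p = 0.00536, adjusted p = 0.29) and Ndufb6 (0.71 ± 0.24, p = 0.00606, adjusted p = 0.29). Without mouse 857 the count was 2 and the median 0.12, and with single-biopsy mice alone 2 and 0.08. With only the 2 groups compared in the fit it was 44 and 0.44, without scaling factors 38 and 0.36, and without the sex covariate 19 and 0.25.

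In treated p53+/- against treated p53-/- lymphoma, 3 members had an unadjusted p under 0.05 and 1 of them was higher (5.27% of all genes, 3.34% higher), with a median of -0.06. They were Atp5s (-0.57 ± 0.22, p = 0.0146, adjusted p = 0.934), Cox7a2l, a factor of respiratory supercomplexes (0.41 ± 0.19, p = 0.0394, adjusted p = 0.94), and Cox7c (-0.42 ± 0.20, p = 0.0466, adjusted p = 0.94). In treated p53+/- against untreated p53-/- lymphoma there were 6 (6.33% of all genes, 2.44% higher), all of them higher, with a median of 0.25. This count was 1 (median 0.03) with only the 2 groups compared in the fit, 2 (0.19) with single-biopsy mice alone and 13 (0.16) without the sex covariate. The smallest p belonged to Atp5c1 (0.64 ± 0.21, p = 0.00505, adjusted p = 0.776), Uqcrb (0.47 ± 0.19, p = 0.0165, adjusted p = 0.776) and Ndufb9 (0.63 ± 0.26, p = 0.0201, adjusted p = 0.776). Sdhb, called against normal thymus in the treated groups, had 0.60 ± 0.23 (adjusted p = 0.316) in treated against untreated p53-/- lymphoma, which did not pass the test.

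In 13 tumours 4 or 5 regions had been sequenced separately, 54 libraries in all. The SD of the member mean among regions of a tumour was 0.16 at the median (0.08 to 0.31), below the SD of 0.35 among the means of these tumours in all 13. Mouse 857 was high in each of its 4 regions, with means of 7.28 to 7.53 log2 CPM. Cox6a2 differed widely inside one tumour. In mouse 869 it was 105, 93.5 and 86 CPM in 3 regions and 8.84 CPM in the other, and its SD among regions was 0.78 at the median against 2.46 among tumours.

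Since the study concerns aneuploidy, the members were also sorted by chromosome. The 6 members on chromosome 4 (Ndufaf4, Ndufaf6, Ndufb6, Ndufs5, Sdhb and Uqcrh) had a median log2 fold change of 0.32 in untreated p53-/-, 1.01 in treated p53-/- and 0.90 in treated p53+/- lymphoma, and without Ndufaf6, the medians of the other 5 were 0.21, 0.84 and 0.74, with 4 of them called higher in each treated group. All tested genes of chromosome 4 had medians of 0.27, 0.25 and 0.38, and 35.5% and 39% of them were higher in the treated groups. The 4 members on chromosome 15 (Atp5g2, Cox6c, Ndufa6 and Ndufb9) had medians of 0.09, 0.74 and 0.67, beside 0.36, 0.29 and 0.42 for its genes, and without Atp5g2 they were 0.08, 0.68 and 0.64. The 9 members on chromosome 7, Cox7a1, Cox8b, Cox6b1, Atp5sl, Ndufa3, Ndufab1, Uqcrc2, Cox6a2 and Ndufc2, had medians of -0.53, -0.39 and -0.33, beside -0.23, -0.40 and -0.28. Without Cox7a1, Cox8b and Cox6a2 the medians of the other 6 were -0.43, -0.19 and -0.18, and Ndufc2 was called higher in treated p53+/- lymphoma, a call lost without normal mouse 961. The 7 members on chromosome 2, with Atp5c1, Atp5e and Atp5g3, had 0.20, 0.61 and 0.57 on a chromosome whose genes had 0.14, 0.03 and 0.04. The 3 members on chromosome 5 had 0.67 and 0.51 in the treated groups (0.48 and 0.44 for its genes), and the 4 on chromosome 19 had -0.17 and -0.32 (-0.41 and -0.38). Across the 85 members without Cox7a1, Cox8b and Cox6a2, the log2 fold change and the median of all genes on the member's chromosome had a Pearson r of 0.43, 0.57 and 0.54. The 85 still include Ndufaf6 and Atp5g2, whose rise was built into their membership, and r was not computed without them. These genes share libraries and are not independent, and DNA copy number was not measured in the table used here.

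**Figure D5:**
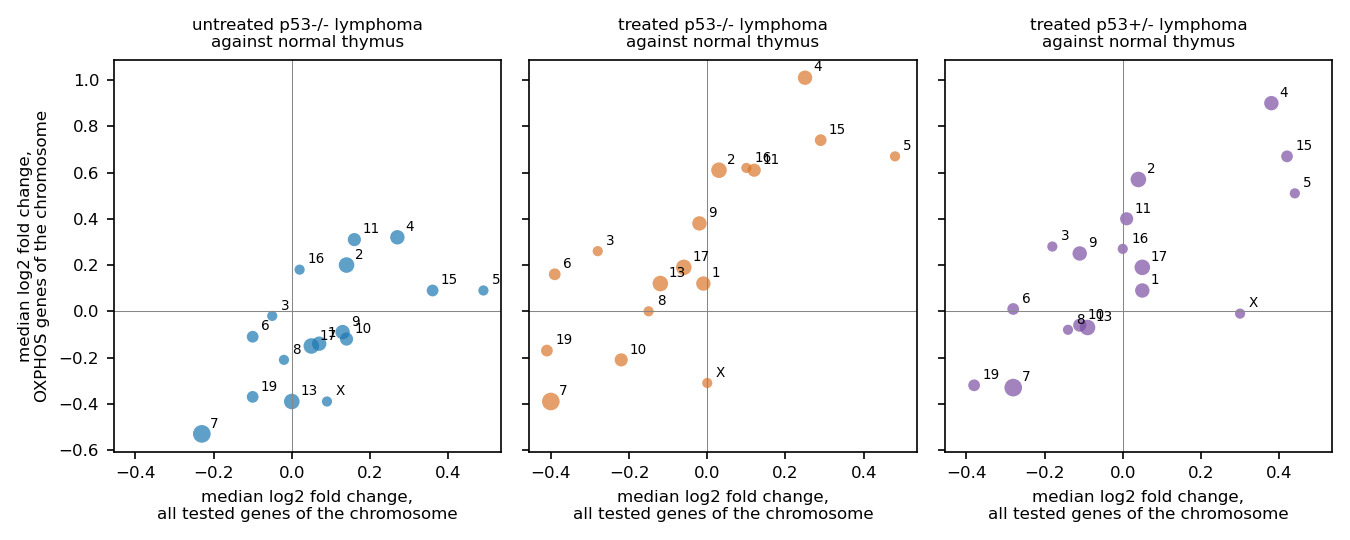
Median log2 fold change of the members on each chromosome (vertical axis) against that of all tested genes on it (horizontal axis), in 3 panels for the 3 lymphoma groups, for chromosomes with 3 or more members, with larger points for more members. Chromosomes 4, 5 and 15 lie at the upper right and chromosomes 7 and 19 at the lower left in the treated groups. Members that met the limit in 1 tissue alone, on chromosomes 4, 7 and 15, are included. Without them the medians of chromosome 7 in the treated groups were -0.19 and -0.18.

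The 13 subunit genes of the mitochondrial genome went the other way from the nuclear ATP synthase genes. None was higher, and 6, 11 and 10 were lower in the 3 lymphoma groups, with medians of -1.06, -2.13 and -1.33. The shares lower were 46.2%, 84.6% and 76.9%, beside 17.5%, 26.7% and 25.3% of all genes. As a share of all counts they held 3.73% to 12.7% (median 5.3%) in normal thymus and medians of 2.28%, 1.76% and 2.16% in the lymphoma groups, and mouse 819 had 3.19%. The 88 nuclear members held a median of 1.24% of counts in normal thymus and 1.22%, 1.48% and 1.3% in lymphoma. mt-Nd4, a proton-pumping core subunit of complex I, had 4432 to 24520 CPM (median 6726) in normal thymus, medians of 1845, 1324 and 2032 CPM in the lymphoma groups and 3308 CPM in mouse 819. All but 1 untreated p53-/- and 1 treated p53+/- tumour lay below every normal p53+/+ thymus. Its log2 fold changes were -2.0 ± 0.42, -2.80 ± 0.43 and -2.13 ± 0.38 (SE, adjusted p = 0.000238, 1.54e-06 and 1.89e-05). mt-Nd4l and mt-Nd2, of the same membrane arm, had -2.12 and -2.03 in treated p53+/- lymphoma, both called. Near-identical nuclear copies of mitochondrial genes can share their reads.

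Genes that assemble the complexes and the mitochondrial ribosome were counted beside the members. Of 40 assembly factors of other names, 39 were tested, with 12 higher and 3 lower in untreated p53-/-, 16 and 3 in treated p53-/- and 11 and 3 in treated p53+/- lymphoma, so that 38.5%, 48.7% and 35.9% were called, below the 40.7%, 52.1% and 50.9% of all genes. The shares higher were 30.8%, 41% and 28.2%, above the 23.2%, 25.4% and 25.6% of all genes. Uqcc2, a complex III assembly factor, had a median of 25.5 CPM in normal thymus and 54.3, 65.2 and 61.9 CPM in the lymphomas (log2 fold changes 0.97, 1.56 and 1.39). Atpaf1, which assembles the ATP synthase head, had 0.77, 1.17 and 1.26, and Cox18, which inserts a complex IV subunit, 1.13, 1.11 and 1.11, all called. Of 78 mitochondrial ribosomal proteins, 34, 49 and 47 were higher and 2 lower in each group, with medians of 0.41, 0.73 and 0.60. The shares called were 46.2%, 65.4% and 62.8%, beside 40.7%, 52.1% and 50.9% of all genes. Mrpl13, Mrps18c and Mrpl1 led them, at 1.5, 1.49 and 1.41 in treated p53+/- lymphoma.

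Among 17 electron carrier genes, 4 were higher and 7 lower, then 8 and 5, then 6 and 6. The shares called were 64.7%, 76.5% and 70.6%, beside 40.7%, 52.1% and 50.9% of all genes. Coq8a, needed for ubiquinone synthesis and active in muscle and brown fat, fell from a median of 71.7 CPM to 12.7, 11 and 12.2 CPM, and Etfdh, which feeds electrons from fatty acid oxidation, from 121 to 56.7, 56.2 and 61.5 CPM. In mouse 819 they stood at 13.7 and 55 CPM. Pdss1, which makes the side chain of ubiquinone, rose by 1.24, 1.35 and 1.47. Of 18 citric acid cycle genes, 1 was higher in each group, Mdh2 (0.73, 0.94 and 0.83), and 7, 7 and 8 were lower, with Ogdh at -0.93, -1.12 and -1.42 and Suclg1 at -0.78, -0.73 and -0.78. The shares of the cycle called were 44.4%, 44.4% and 50%. Of 22 glycolysis genes 13 were higher in each group and 0, 2 and 2 lower, which is 59.1%, 68.2% and 68.2% called, led by the lactate exporter Slc16a3 (3.78, 3.76 and 3.10), Pgk1 (1.5, 2.05 and 2.21) and Pkm (1.70, 2.08 and 1.96).

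Of 17 regulators of mitochondrial genes, 7, 5 and 6 were higher and 3 lower in each group, so that 58.8%, 47.1% and 52.9% were called, beside 40.7%, 52.1% and 50.9% of all genes. Ppargc1a, the coactivator of brown fat and muscle mitochondria, had 1.54 to 14.4 CPM in normal thymus and at most 1.17 CPM in any lymphoma (log2 fold changes -4.77, -6.33 and -5.56, all called). Esrra, its nuclear receptor partner, fell by 0.91, 1.09 and 1.15 on the log2 scale, from a median of 39.9 CPM to 21.6, 18.3 and 18.1 CPM. Myc, a driver of growth in T-cell lymphoma that also acts on mitochondrial genes, had 38.9 to 59.8 CPM in normal thymus, 57.1 CPM in mouse 819, and medians of 218, 224 and 218 CPM in the lymphomas. All 31 lymphomas exceeded all normal p53+/+ thymuses in Myc, with log2 fold changes of 2.29 ± 0.28, 2.16 ± 0.27 and 2.06 ± 0.26 (SE, adjusted p = 7.12e-08, 5.66e-08 and 6.61e-08).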

How the data were processed

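RNA from snap-frozen thymic tissue of 40 mice was sequenced in 81 libraries. The values used are the expected counts per gene that the authors deposited, RSEM estimates without scaling, of which 14.3% were not whole. The submitters' processing notes name CASAVA 1.8, fastp, STAR 2.7.2b, RSEM 1.1.17 and build mm10. Strand use is not given in the sources used here. Counts were rounded and summed per mouse, so p-values measure the spread between mice. edgeR 4.0.16 (R 4.3.3) fitted quasi-likelihood models with TMM factors, filterByExpr and the labelled sex, in 1 fit of normal p53+/+ thymus with the 3 lymphoma groups and 1 of the lymphoma groups alone. Genes with a Benjamini-Hochberg adjusted p under 0.05 over all genes tested were called. Levels are CPM, and means of log2 CPM use a prior count of 2. The code was tested on simulated counts with 200 changed genes. Gene positions come from GENCODE on GRCm38 (51633 of 51826 genes matched). Near copies were transcripts of at least 200 aligned bases and 95% identity by minimap2. Counts of Xist and Y-linked genes went against the sex label in 3 mice. The genes named were all isoform pairs, complex II, core subunits, the largest called rise and fall per complex and comparison, the 3 smallest p between tumours, and the genes nearest the limit; other members named, among them Ndufs5, Ndufaf5, Ndufaf7, Ndufaf8, Cox6c and the stalk and stator subunits, were chosen after their values were seen. The members and lists were chosen with earlier results of these data known. Alternatives were DESeq2 1.42.0, limma 3.58.1 voom over biopsies, other scaling, filters, covariates and sets of mice. Some single genes are not reported here.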

Additional observations from a re-analysis of the deposited data

Results flagged for a closer look

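Among 48 sets of mice of 1 group examined for a member or a complex mean, 1 held a mouse far from the others. Treated p53+/- lymphoma was not examined, since the critical values used covered smaller groups only. Normal p53+/+ mouse 624 had Atp5g3 at a log2 CPM of 8.32, with the next normal thymus at 7.63, a gap of 0.535 of the group's range against a critical value of 0.526. Chance alone would give about 1 in 20 such sets.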

How the results depend on the processing

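No paired analysis was possible because the mouse numbers are not shared between groups. Over 24 alternatives, 178 of 216 recomputed counts of called members against normal thymus stayed within 1.5 times their main value and 38 did not. The 36 counts between lymphoma groups were all 0. The counts against normal thymus, and the totals per lymphoma group below, cover all members. They include Cox7a1, Cox8b, Cox6a2, Ndufaf6 and Atp5g2, which met the limit in 1 tissue alone and passed in all 3 main comparisons. The number that stayed thus rests in part on differences built into membership, and it was not computed without these genes. Of 61 calls against normal thymus of members that met the limit in both tissues, 22 were lost by leaving out 1 normal mouse or mouse 857. In untreated p53-/- lymphoma (16 called, 6 higher and 10 lower) the totals were 0 with the fat covariate and 8 with the proliferation covariate (2 higher, 6 lower). There 11 were higher with mouse 819 added, 13 without mouse 857, and 19 lower without scaling factors. In treated p53-/- lymphoma (34 called) the totals were 0 and 8 (5 higher, 3 lower) with the same covariates, and 12 were higher and 14 lower with single-biopsy mice. In treated p53+/- lymphoma (26 called) they were 0 and 8 (5 higher, 3 lower), with 17 called and 12 higher among single-biopsy mice and 15 lower without scaling factors. Leaving out each normal mouse in turn gave 15 to 18 called members (5 to 9 higher, 6 to 12 lower) in untreated p53-/-, 30 to 39 (19 to 35 higher, 4 to 11 lower) in treated p53-/- and 20 to 30 (15 to 26 higher, 4 to 9 lower) in treated p53+/- lymphoma. Of 29 called differences of named members among these, the fat covariate turned Sdha to 0.26, 0.33 and 0.15. Mouse 819 in place of the normal thymuses turned Sdha to 0.33, 0.36 and 0.18, Uqcrb to 0.45 and 0.82, Ndufa5 to 0.30 and 0.78, Cox6b1 to 0.38 and 0.52, Ndufb10 to 0.35 and 0.43 and Ndufs7 to 0.51. Of the members described without a test, the fat covariate turned Cox8b to 2.25, 1.78 and 0.90, and mouse 819 turned Cox7a1 to 0.96, 0.25 and 0.55 and Cox8b to 0.25. None of the values with the fat covariate was called, and mouse 819 is a single mouse, so the turned signs are estimates and do not show a reversal. The causes were not tested. Leaving out normal thymuses with Ucp1 at 100 CPM or more was not run, since it would have removed all 8. Members near the limit of 5 CPM rest on few counts, and so do differences of Cox8b among tumours.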
